A study of Drosophila melanogaster with 6 samples.

Results

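The genes described here encode the subunits of the proteasome in the Drosophila melanogaster oviduct, the muscular duct that carries eggs from the ovary to the uterus. They were taken as every gene whose current symbol is Prosalpha, Prosbeta, Rpn or Rpt followed by a digit and that had a probe set annotated to it alone. Of 48 genes with such a symbol, 39 were measured, out of 10844 genes measured in all. The study compared oviducts of mated females, dissected 3 h after the end of mating, with oviducts of unmated females dissected in parallel. All females were 3 days old, and no mutant, transgene or agent is named for either group. Each group had 3 arrays with biotin-labelled RNA, called biological repeats, and tracts of 400 to 500 females were pooled. Whether each array had a pool of its own is not stated, so the p-values measure the spread between arrays, which may be technical in part.

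The proteasome degrades proteins that carry chains of ubiquitin. Its core particle is a stack of rings made of alpha subunits, which form the gate, and beta subunits, some of which carry the protease sites inside the chamber. A regulatory particle caps the core: its base holds a ring of ATPases that unfold the substrate, and its lid holds the enzyme that removes the ubiquitin chain. Drosophila also has extra copies of several subunits, with a T or an R after the number, and several of them are known from the testis, where alternative proteasomes form during sperm development. The 39 measured genes fell into 12 of 14 core genes, 14 of 18 regulatory particle genes and 13 of 16 paralogs with a T or R suffix. The 9 genes without a value here were Prosalpha1, Prosalpha1R, Prosbeta1, Prosbeta5R2, Rpn9, Rpn10, Rpt1, Rpt6 and Rpt6R. A probe set annotated to both Prosalpha1 and Prosalpha1R was not used for either.

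The arrays differed in ways the groups do not explain. The median intensity was 66.5, 66.1 and 60.6 on mated arrays 1, 2 and 3, and 86.2, 86.0 and 62.4 on unmated arrays 1, 2 and 3. Over all probe sets, the closest pair of arrays was mated array 1 and unmated array 3 (Pearson's r of 0.945 across probe sets, which are not independent). Transcripts of muscle and epithelium were bright on every array: the 7 measured of 11 muscle genes summed to 54848 to 76661 in mated and 51998 to 80329.9 in unmated oviducts. Of 4 genes set as oviduct markers, the octopamine receptor gene Octbeta2R was measured, at 653, 243 and 379 on the mated arrays and 318, 246 and 405 on the unmated arrays. Genes of ovary, eggshell and germline, 24 measured of 26, summed to 2430.5 to 5451 in mated and 3702 to 15906 in unmated oviducts. On a log2 scale, with each gene centred on its own mean and the all-gene median taken off each array, their level was -0.30, -0.68 and -0.48 on the mated arrays, and 1.15, 1.33 and -0.57 on the unmated arrays. Genes of the midgut, 10 measured of 12, had -0.32, -0.60 and -1.72 on the mated arrays, and 1.39, 1.55 and -0.78 on the unmated arrays on the same scale. Genes of the fat body, 5 of 5, had -0.22, -0.45 and 0.07 on the mated arrays, and 0.35, 0.40 and -0.54 on the unmated arrays. Unmated arrays 1 and 2 thus stood apart from the other 4 arrays in the levels of the ovary, midgut and fat body lists. Single genes did not all follow. In the fat body list, apolpp and Apoltp were highest on both of these arrays, but Lsp2, fit and Fbp1 did not set them apart.

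None of the 39 proteasome genes passed the test between mated and unmated oviducts. The median log2 difference, mated minus unmated, was -0.25 for the core, 0.04 for the regulatory particle and -0.53 for the paralogs, against -0.16 for all 10844 genes. Limma, fitted on all 13966 probe sets with Benjamini-Hochberg adjustment, called 0 of the 39 genes at an adjusted p of 0.05, and it called 0% of all probe sets. With trend and robust variance settings the count was also 0. At an unadjusted p of 0.05, 1 of the 39 genes was called, Prosalpha3T, a paralog lower in mated oviducts, against 6.59% of all probe sets in either direction, 5.56% lower and 1.04% higher. The count was 0 without mated array 1, 2 without mated array 3 and 3 without unmated array 3, and in the other omissions of 1 array it was 1, with Prosbeta2R2 or Prosalpha4T1 in place of Prosalpha3T. It was 1 with the replicate number as a block, where the gene was Prosbeta4R2, and 0 with trend and robust variance settings, which called 5.76% of all probe sets. The mated and unmated intensities did not overlap in 1 gene, the paralog Rpn12R, which was lower in mated oviducts, against 10.9% of all probe sets in either direction, 8.59% lower and 2.33% higher.

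**Figure D1:**
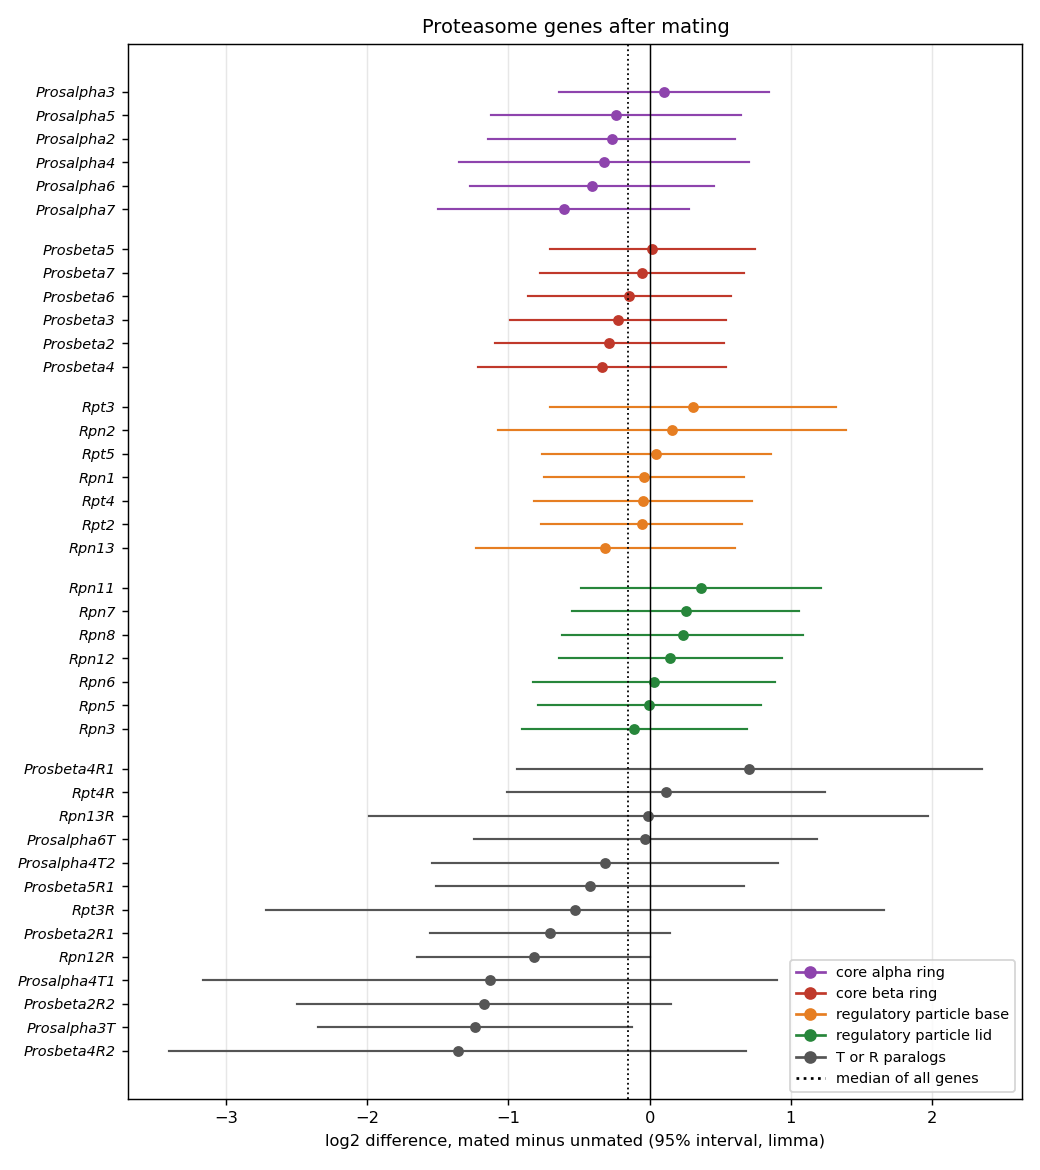
Log2 difference in intensity, mated minus unmated, for the 39 proteasome genes (points), with limma's 95% interval (lines); colours mark the subcomplex and the dotted line is the median of all genes, -0.16. The 26 core and regulatory particle genes lie between -0.61 and 0.37 with intervals that cross 0, and the paralogs at the bottom have wider intervals.

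The alpha ring of the core had 6 measured genes, and 5 had a difference below 0. Prosalpha7 had the largest difference of the core: its intensity was 1091, 764 and 550.0 on mated arrays 1, 2 and 3, and 1119, 1003 and 1449 on unmated arrays 1, 2 and 3. Mated arrays 2 and 3 lay below all unmated arrays, but mated array 1 lay among them, so the groups overlapped. The log2 difference was -0.61 ± 0.38 (SE, n = 3 each), with limma's adjusted p at 0.819. A second probe set of Prosalpha7 read 11.7, 17.8 and 8.8 in mated and 14.1, 8.0 and 6.5 in unmated oviducts, with a log2 difference of 0.44 ± 0.44, but it lay under the array's own lower quartile on 5 of the 6 arrays, so its sign carries no weight.

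Prosalpha6 stood at 457, 766 and 900.5 on the mated arrays, and at 949.8, 822 and 948 on the unmated arrays. Its low value came from mated array 1, and mated array 3 overlapped the unmated range. The log2 difference was -0.41 ± 0.37, with an adjusted p of 0.897 in limma. The same array was lowest for Prosalpha2, at 1252, 2291 and 2153 in mated and 2259.6, 2614 and 1826 in unmated oviducts. It was lowest for Prosalpha5 too, at 295, 565 and 427 in mated and 552, 548 and 385 in unmated oviducts. Prosalpha4 and Prosalpha3 went the other way, with mated array 1 the highest of all 6 arrays. Prosalpha4 read 1012, 418 and 597 on the mated arrays, and 575, 946 and 908 on the unmated arrays. Prosalpha3 read 944, 738 and 715 on the mated arrays, and 634, 775 and 821 on the unmated arrays; it was the alpha subunit with a difference above 0, at 0.10 ± 0.32. The alpha genes therefore did not share 1 pattern over the arrays.

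The beta ring also had 6 measured genes, of which 5 had a difference below 0. Prosbeta5, the subunit with the chymotrypsin-like site, was at 1380.0, 1485 and 1804 in mated and 1392, 1494 and 1705 in unmated oviducts. Its means of 1556 ± 220.5 and 1530.3 ± 159.5 (SD, n = 3 each) differed by 0.02 ± 0.31 on the log2 scale (SE), with a 95% interval of -0.71 to 0.75. Prosbeta2, the subunit with the trypsin-like site, was at 1931, 1473 and 1771 in mated and 1549.7, 2270.3 and 2597 in unmated oviducts. Its groups overlapped through unmated array 1, and the log2 difference was -0.29 ± 0.34, with an adjusted p of 0.938 in limma. Prosbeta1, which carries the caspase-like site, was not analysed here.

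The other beta subunits carry no protease site and shape the chamber. Prosbeta4 had 2486, 1698 and 2345 on the mated arrays, and 2038, 2562 and 3838 on the unmated arrays. Unmated array 3 was the highest by a wide margin and the remaining values interleaved. The log2 difference was -0.34 ± 0.37, with limma's adjusted p at 0.926. Prosbeta3 had 1117, 1618 and 1624 in mated and 1611, 1535 and 1877 in unmated oviducts. Prosbeta6 had 1397, 1651 and 1907 in mated and 1795, 1766 and 1873 in unmated oviducts. Prosbeta7 had 1146, 1461 and 1531 in mated and 1417, 1509 and 1339 in unmated oviducts. In these 3 genes, as in Prosbeta5, mated array 1 was the lowest of the 6 arrays. A second, dim probe set of Prosbeta6 read 62.8, 8.5 and 20.3 in mated and 21.0, 6.1 and 23.1 in unmated oviducts, under the array's lower quartile on 3 of the 6 arrays, and its difference of 0.62 ± 0.83 lay within its SE, as did the -0.14 ± 0.31 of the bright set.

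**Figure D2:**
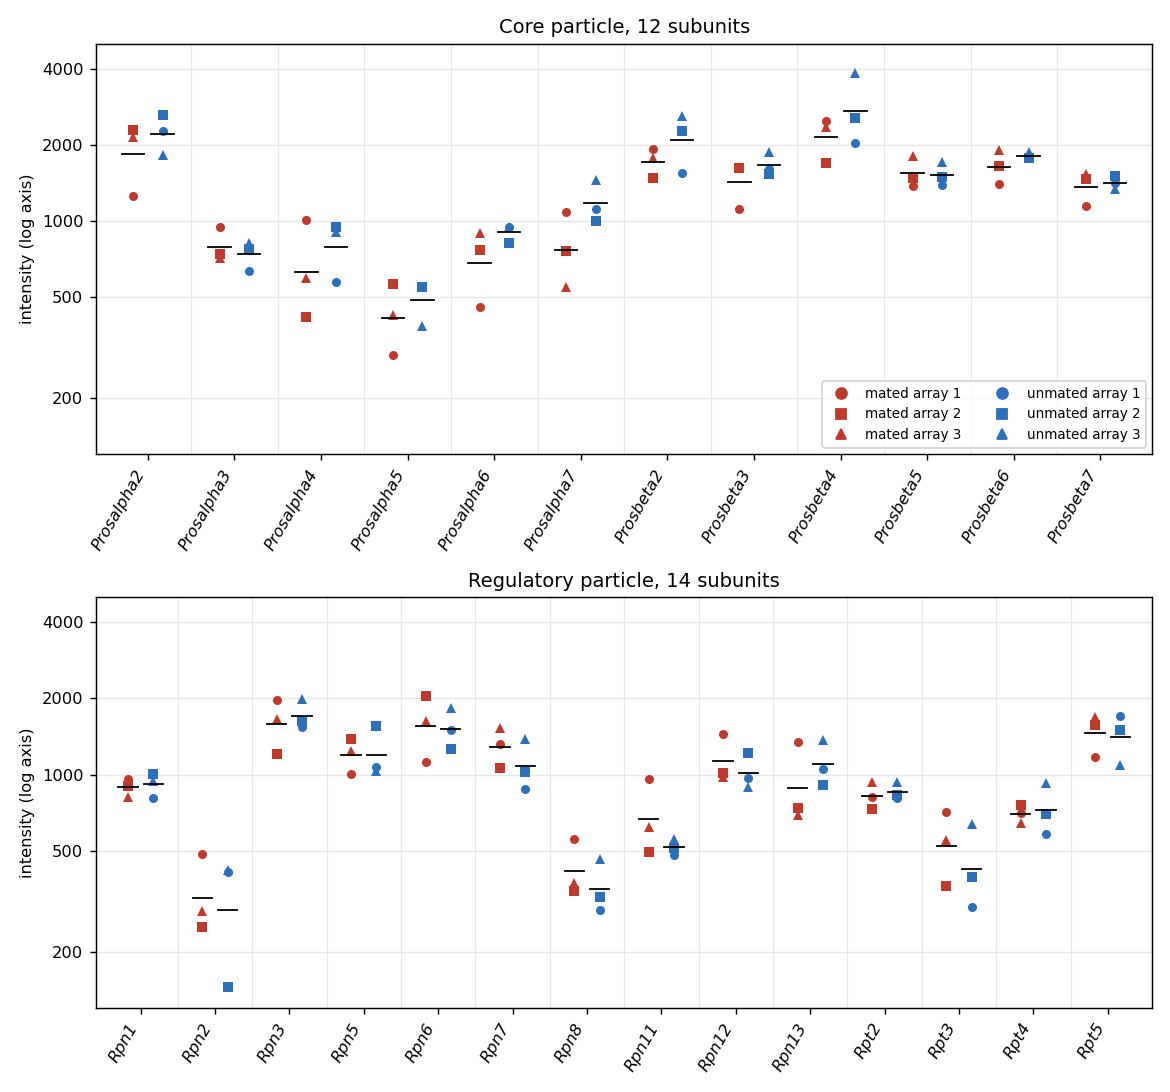
Deposited intensity (log axis) of each core and regulatory particle gene on each array, mated (red) left of unmated (blue); marker shapes give the array number and black lines the geometric mean of 3 arrays. Mated and unmated points overlap in all 26 genes, and the red circles of mated array 1 lie lowest for 4 of the 6 beta subunits and high for Rpn2, Rpn8, Rpn11, Rpn12 and Rpt3.

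The base of the regulatory particle had 7 measured genes of 10, and 3 had a difference above 0. Among the ATPases, Rpt3 read 714, 363 and 552 on the mated arrays, and 300.2, 396 and 638 on the unmated arrays. Mated array 1 was the highest and unmated array 1 the lowest, with the other 4 arrays between them in mixed order. The log2 difference was 0.31 ± 0.43, with an adjusted p of 0.944 in limma. Rpt2 read 815, 732 and 936 in mated and 806, 833 and 935 in unmated oviducts. Rpt4 read 706, 757 and 642 in mated and 582, 699 and 928 in unmated oviducts. Rpt5 read 1168, 1566 and 1686 in mated and 1705, 1502 and 1089 in unmated oviducts. In Rpt2, Rpt4 and Rpt5 the group means differed by less than either group's SD.

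The scaffold subunits of the base differed from each other in their spread. Rpn1, a docking platform for ubiquitin-binding shuttle proteins, had the narrowest range of all 39 genes, at 957, 905 and 813 in mated and 811, 1004 and 939 in unmated oviducts. Its highest array was 1.24 times its lowest, and the log2 difference was -0.04 ± 0.30, with a 95% interval of -0.75 to 0.67. Rpn2, its structural partner, had the widest range of the 26 core and regulatory particle genes, at 484, 249 and 288 in mated and 414, 145 and 418 in unmated oviducts. Unmated array 2 was lowest, and the ratio of highest to lowest array was 3.34. Rpn13, a ubiquitin receptor, was the base gene with the largest negative difference, at 1341, 739 and 692 in mated and 1055, 910.0 and 1373 in unmated oviducts. Mated arrays 2 and 3 lay below the unmated arrays and mated array 1 did not; the difference was -0.31 ± 0.39, with limma's adjusted p at 0.939.

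The lid had 7 measured genes of 8, and 5 had a difference above 0. Rpn11, the metalloprotease that cuts the ubiquitin chain off the substrate, had the smallest p of the regulatory particle. It was at 964, 494 and 621 on the mated arrays, and at 484, 514 and 555 on the unmated arrays. The unmated arrays lay close together, mated arrays 1 and 3 lay above them and mated array 2 among them. The means were 693 ± 243 and 518 ± 36.1 (SD, n = 3 each), and the log2 difference was 0.37 ± 0.36 (SE), with an adjusted p of 0.910 in limma and a 95% interval of -0.48 to 1.22. Rpn8, the partner of Rpn11, was at 559, 348 and 374 in mated and 292, 328 and 466 in unmated oviducts. It too was highest on mated array 1 and lowest on unmated array 1.

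The remaining lid genes encode structural subunits that hold the lid together and anchor it to the base and the core. Rpn7 was at 1319.9, 1058 and 1527 in mated and 881, 1028 and 1381 in unmated oviducts, a log2 difference of 0.26 ± 0.34, with an adjusted p of 0.942 in limma. Rpn12 was at 1446, 1015 and 975 in mated and 971, 1218 and 889.8 in unmated oviducts. Mated array 1 was high for Rpn12 and within the unmated range for Rpn7. Rpn3 was at 1974, 1210.3 and 1655 in mated and 1537, 1626 and 1979.9 in unmated oviducts. Rpn5 was at 1002, 1386 and 1236 in mated and 1076, 1549 and 1033 in unmated oviducts. Rpn6 was at 1119.8, 2033 and 1634 in mated and 1496, 1267 and 1837 in unmated oviducts. These 3 had differences between -0.11 and 0.03, and mated array 1 was the lowest array for Rpn5 and Rpn6.

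As a group, the regulatory particle lay above the all-gene median and the core below it, and the gap between them was small without mated array 1. Relative to the all-gene median, the median log2 difference was 0.20 for the 14 regulatory particle genes, of which 13 lay above that median, and -0.10 for the 12 core genes, of which 4 did. Within the core it was -0.14 for the alpha ring and -0.03 for the beta ring. Within the regulatory particle it was 0.12 for the base and 0.30 for the lid. In the same order, these were -0.35, -0.27, -0.06 and 0.09 after quantile normalization. After cyclic loess they were -0.35, -0.25, -0.08 and 0.10. Among the 5868 genes brighter than the median, which all 26 of these genes are, 62.0% lay above the all-gene median. After quantile normalization, as after cyclic loess, 6 of the 14 regulatory particle genes and 1 of the 12 core genes lay above it. The regulatory particle's median exceeded the core's by 0.29 with all arrays and by 0.03 without mated array 1. Without mated array 1 the relative medians were 0.14 for the regulatory particle and 0.11 for the core.

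By array, the regulatory particle's relative level was 0.28, -0.14 and 0.15 on mated arrays 1, 2 and 3, and -0.33, -0.28 and 0.35 on unmated arrays 1, 2 and 3. The core's was -0.15, -0.04 and 0.13 on the mated arrays, and -0.14, -0.13 and 0.31 on the unmated arrays. The regulatory particle stood 0.43 above the core on mated array 1, and the difference was between -0.19 and 0.03 on the other 5 arrays. Mated array 1 was the lowest array for 7 of the 12 core genes and the highest for 5 of the 14 regulatory particle genes. Both lists were higher on unmated array 3 than on any other array, and both overlapped between the groups. With unmated arrays 1 and 2 left out, which leaves 1 unmated array, the relative medians were -0.18 for the regulatory particle and -0.30 for the core. These arrays were also those on which the ovary, midgut and fat body lists stood high. The midgut genes summed to 464 to 1041 in mated oviducts, and to 3632, 4458 and 780.0 on unmated arrays 1, 2 and 3, and the fat body genes to 901 to 1086 in mated oviducts, and to 1742, 1500.4 and 751 on those unmated arrays. The part of such transcripts in the proteasome values was not tested. In such pooled tissue RNA, fewer cells of a type and less RNA per cell cannot be told apart.

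**Figure D3:**
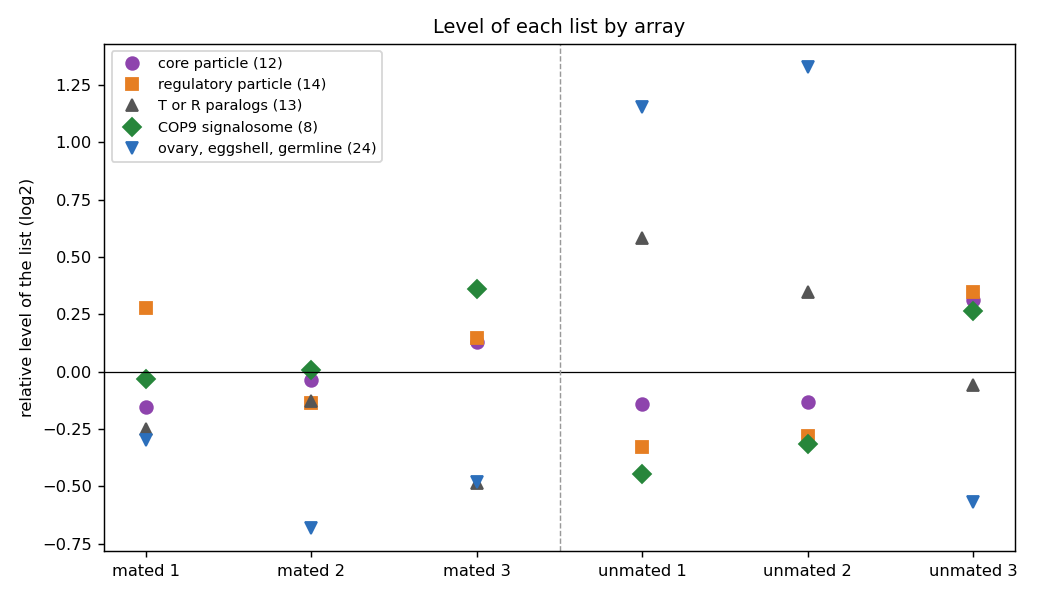
Relative level of 5 gene lists on each array (log2, the list's median after centring each gene on its mean over 6 arrays, minus the same for all genes); the number of genes is in the legend. The core and regulatory particle lists part on mated array 1 and lie together on mated array 3 and unmated array 3, and the ovary list is high on unmated arrays 1 and 2.

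Under the deposited scaling, the intervals give the range of differences compatible with the spread between these arrays. That spread may be technical in part, and the intervals were not adjusted for the number of genes. Other scalings move the intervals: after median centring the log2 difference of Rpn11 was 0.63, beside 0.37 as deposited. Among the 26 core and regulatory particle genes, limma's 95% interval of the log2 difference lay within 2-fold in either direction for 13, which were 5 core and 8 regulatory particle genes. With trend and robust variance settings it lay within 2-fold for 18. Among the 5868 genes brighter than the median, the counts without and with those settings were 1609 and 2520. Among all 10844 genes they were 1754 and 2525. Over all 26 genes the lower bounds reached -1.50 and the upper bounds 1.39. The median absolute log2 difference was 0.25 for the core and 0.13 for the regulatory particle, beside 0.35 for all genes and 0.24 for the 5868 genes whose probe set was brighter than the median.

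The paralogs with a T or R suffix gave dim signals throughout. All 26 genes of the core and regulatory particle lay above the array median on every array, whereas 10 of the 13 paralogs lay below it on every array. Of their 78 values, 31 lay under 14.2, the lowest lower quartile of any array, and 9 of the 13 genes had such a value. Without detection calls a dim signal could not be separated from background, and an intensity does not compare transcript amounts between genes. A probe set could also bind the transcript of a near-identical copy, so values of paralogs are uncertain. At such levels the arrays spread widely: the highest array was 2.41 to 15.4 times the lowest, with a median of 4.94, beside 1.84 for the core and 1.69 for the regulatory particle.

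**Figure D4:**
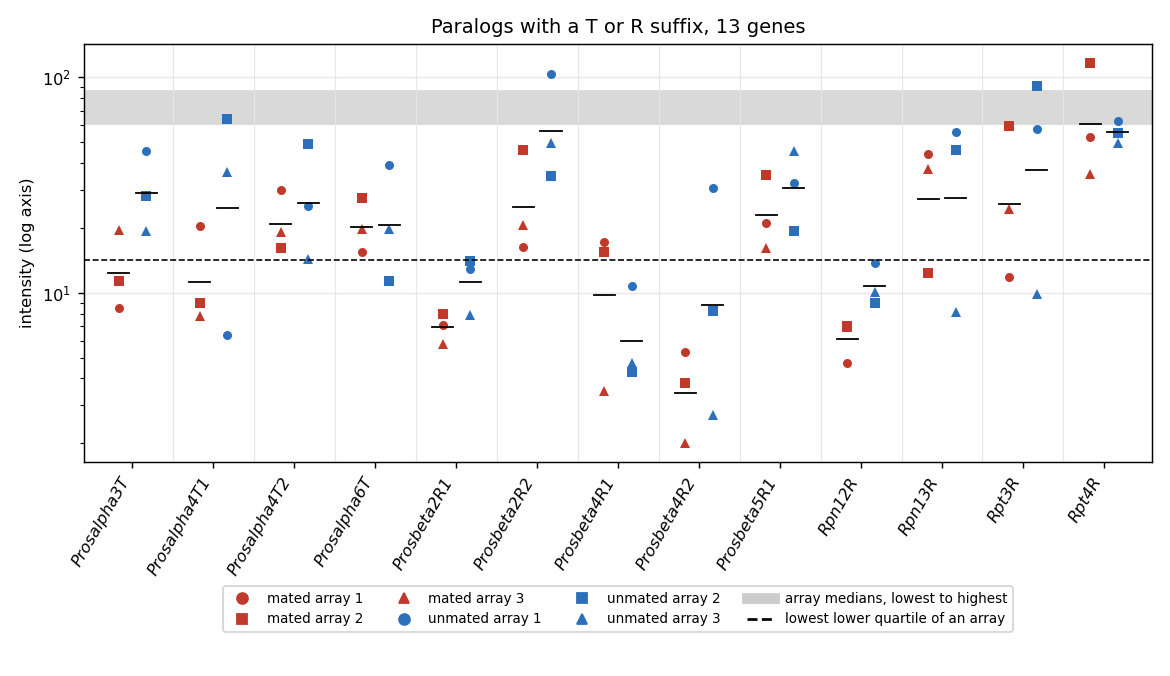
Deposited intensity (log axis) of the 13 paralogs on each array, mated (red) left of unmated (blue); black lines are geometric means of 3 arrays, the grey band spans the array medians from 60.6 to 86.2 and the dashed line marks 14.2. Most points lie below the band, many lie below the dashed line, and only Rpn12R has groups that do not overlap.

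Among the paralogs of alpha subunits, Prosalpha3T had 8.5, 11.4 and 19.5 on the mated arrays, and 45.5, 28 and 19.4 on the unmated arrays. Mated array 3 and unmated array 3 nearly coincided, at 19.5 and 19.4, and the groups overlapped there by that margin. The log2 difference was -1.24 ± 0.47 (SE), with an unadjusted p of 0.0338 and an adjusted p of 0.745 in limma, while with trend and robust variance settings the unadjusted p was 0.0651. With 32 added to every intensity before log2 the difference was -0.47. Prosalpha4T1 had 20.4, 9.0 and 7.8 in mated and 6.4, 64.3 and 36.5 in unmated oviducts. Prosalpha4T2 had 30.0, 16.1 and 19.1 in mated and 25.3, 49.1 and 14.3 in unmated oviducts. Prosalpha6T, which is known to be needed for sperm development, had 15.4, 27.5 and 19.7 in mated and 39.4, 11.4 and 19.8 in unmated oviducts. In these 3 genes 1 or 2 unmated arrays were high and another unmated array was the lowest of the 6.

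Among the paralogs of beta subunits, Prosbeta2R2 had 16.3, 46.2 and 20.7 on the mated arrays, and 103, 35.0 and 49.5 on the unmated arrays. Mated array 2 overlapped the unmated range; the difference was -1.17 ± 0.56, with limma's adjusted p at 0.771. Prosbeta2R1 had 7.1, 8.0 and 5.8 in mated and 12.9, 14 and 7.9 in unmated oviducts, all below 14.2. Prosbeta4R2 had the largest difference of all 39 genes, -1.36 ± 0.87, from 5.3, 3.8 and 2.0 in mated and 30.8, 8.2 and 2.7 in unmated oviducts. Unmated array 1 was the high value and unmated array 3 lay among the mated arrays, 5 of the 6 values were under 14.2, and limma's adjusted p was 0.827. The difference was -0.46 without unmated array 1, 0.34 with unmated arrays 1 and 2 left out and -0.32 with 32 added before log2, where Prosbeta2R2 at -0.63 was larger. Prosbeta4R1 had 17.3, 15.5 and 3.5 in mated and 10.7, 4.3 and 4.7 in unmated oviducts, the largest positive difference of the 39 at 0.71 ± 0.70. Prosbeta5R1 had 21.0, 35.1 and 16.2 in mated and 32.5, 19.4 and 45.6 in unmated oviducts, with groups that interleaved.

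Among the paralogs of regulatory particle subunits, Rpn12R had 4.7, 7.0 and 6.9 on the mated arrays, and 13.8, 9.0 and 10.1 on the unmated arrays. The groups did not overlap, but all 6 values were below 14.2. The difference was -0.82 ± 0.35, with an adjusted p of 0.752 in limma and -0.17 with 32 added before log2. Rpt4R, the brightest paralog, had 53.0, 117 and 35.8 in mated and 63, 55.5 and 49.8 in unmated oviducts. Rpt3R had 11.9, 59.4 and 24.5 in mated and 57.7, 91.1 and 9.9 in unmated oviducts. Rpn13R had 44.3, 12.3 and 37.5 in mated and 55.8, 46.0 and 8.1 in unmated oviducts. In Rpt3R and Rpn13R unmated array 3 was the lowest of the 6 arrays.

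Set beside the subunit it is named after, each paralog had its own value. Prosalpha3T was at -1.24 ± 0.47 and Prosalpha3 at 0.10 ± 0.32 (log2 difference ± SE). Rpn12R was at -0.82 ± 0.35 and Rpn12 at 0.15 ± 0.33, and Prosbeta2R2 was at -1.17 ± 0.56 and Prosbeta2 at -0.29 ± 0.34. In all, the paralog's difference was the lower one in 8 of 13 pairs and the higher one in 5. The higher ones included Prosbeta4R1, at 0.71 ± 0.70 beside -0.34 ± 0.37 for Prosbeta4, and Prosalpha6T, at -0.03 ± 0.52 beside -0.41 ± 0.37 for Prosalpha6. Prosalpha4T2 was also counted as higher, though nearly level with Prosalpha4, at -0.315 and -0.322. The pairs are not independent, since Prosalpha4, Prosbeta2 and Prosbeta4 each recur. Each pair also sets a dim probe set beside a bright one. The median log2 difference was -0.04 for the genes brighter than the median level and -0.16 for all genes. Differences between genes were not tested.

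As a list, the paralogs had a median log2 difference of -0.37 after the all-gene median was taken off, and 9 of 13 were under that median. Over all genes 50.0% lay above that median, and among the 5868 genes brighter than the median level 62.0% did. The share above it was therefore lower among the dimmer genes, to which all 13 paralogs belong. The paralogs' relative level was -0.25, -0.13 and -0.49 on mated arrays 1, 2 and 3, and 0.58, 0.35 and -0.06 on unmated arrays 1, 2 and 3. Unmated array 1 was the highest array for 6 of the 13 genes and unmated array 2 for 4. With unmated arrays 1 and 2 left out the relative median was 0.03, and with 32 added before log2 it was -0.08. Genes of testis and sperm, 23 measured of 24, had a relative median of -0.18 and summed to 1456 to 2288 in mated and 1800.5 to 2070.0 in unmated oviducts. Their relative level was 0.03, -0.02 and -0.28 on the mated arrays, and 0.58, -0.06 and -0.11 on the unmated arrays. The brightest gene, bol, gave most of the sum on the mated arrays and on unmated array 3, but not on unmated arrays 1 and 2. Without bol the sum was 621 to 964 in mated oviducts, and 1418, 938 and 872 on unmated arrays 1, 2 and 3. Of the 23 genes, 10 lay above the all-gene median and 13 below it, and 16 had a value under 14.2, 4 of them on every array. In 2 of the 23, ProtB and twe, the groups did not overlap, both lower in mated oviducts. Over all probe sets the groups did not overlap in 10.9%, and 8.59% were lower in mated oviducts. The protamine gene ProtB, which packs sperm DNA, had 5.7, 1.1 and 4.5 in mated and 21.2, 32.7 and 9.9 in unmated oviducts. The gene twe, a Cdc25-type phosphatase of meiosis that the ovary also uses, had 17.3, 15.8 and 9.0 in mated and 54.5, 80.4 and 34.0 in unmated oviducts. Genes of the male accessory gland, 12 measured of 14, summed to 167 to 263 in mated and 187 to 308 in unmated oviducts. Without SP, the brightest of them, the sums were 68.3 to 135 in mated and 73.3 to 189 in unmated oviducts. The gland genes' relative median was -0.44, with 4 of the 12 above the all-gene median and 8 below it. In 2 of the 12, Acp26Aa and Acp63F, the groups did not overlap, both lower in mated oviducts, beside 8.59% of all probe sets. Of the 12, 11 had a value under 14.2, 5 of them on every array. The part of germline or gland transcripts in the paralogs' values was not tested.

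Genes that build, assist or regulate the proteasome also gave no call. Of 14 listed, 13 were measured, and the relative median log2 difference was 0.03. In limma, 0 of the 13 passed the adjusted test and 0 had an unadjusted p under 0.05, beside 0% and 6.59% of all probe sets. PI31, a regulator of proteasome assembly and transport, had 379, 380.0 and 332 on the mated arrays, and 411, 454 and 528 on the unmated arrays. All 3 mated arrays lay below all 3 unmated ones, with a difference of -0.35 ± 0.30 and an adjusted p of 0.892 in limma. PI31 was the 1 gene of the 13 whose groups did not overlap, beside 10.9% of all probe sets, 8.59% lower in mated oviducts. Uch-L5, a deubiquitinase that binds Rpn13, had 195, 155 and 197 in mated and 134, 156 and 114 in unmated oviducts, a difference of 0.45 ± 0.32. Pomp, the chaperone of core assembly, had 119, 117 and 184 in mated and 214, 261 and 112 in unmated oviducts. The gene cnc, whose protein is the fly relative of the factors that induce proteasome genes, had 118, 110.0 and 92.7 in mated and 129, 108 and 112 in unmated oviducts. The groups overlapped in Uch-L5, Pomp and cnc.

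Ubiquitin genes, conjugating enzymes and the unfoldase system of TER94, the fly homologue of VCP, gave a relative median of 0.29 over 15 measured of 20 genes, with 14 above the all-gene median. The COP9 signalosome, a complex built like the lid that removes Nedd8 from cullins, gave 0.21 over 8 of 8 genes, all above that median, where 62.0% of genes brighter than the median lay. None of these 23 genes passed the limma test, also at an unadjusted p of 0.05, which 6.59% of all probe sets passed. The ubiquitin ligase gene sip3, whose protein acts in disposal of misfolded proteins from the ER, had 1111, 719 and 958 in mated and 423, 492 and 837 in unmated oviducts, a difference of 0.71 ± 0.39 with an adjusted p of 0.799 in limma. CSN7 had 742, 505 and 501 in mated and 212, 206 and 759 in unmated oviducts, so unmated array 3 stood with the mated arrays. The ubiquitin gene Ubi-p5E had 13784, 11081 and 10333 in mated and 8788, 8468 and 13198 in unmated oviducts, although near-identical ubiquitin repeats in other genes make its signal uncertain. By array, the signalosome's relative level was -0.03, 0.01 and 0.36 on the mated arrays, and -0.45, -0.32 and 0.27 on the unmated arrays. With unmated arrays 1 and 2 left out the relative medians were -0.14 for the ubiquitin genes and -0.13 for the signalosome. In the same order, they were 0.11 and 0.14 after quantile normalization and 0.09 and 0.13 after cyclic loess.

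Quantile normalization and cyclic loess turned the sign of the regulatory particle's relative median. Median centring moves every gene on an array by the same amount, so it cannot change a relative median. The regulatory particle's relative median was -0.04 after quantile normalization and -0.02 after cyclic loess, beside 0.20 as deposited, and the core's was -0.32 after both. The gap between them was 0.28 after quantile normalization and 0.29 after cyclic loess. Without adjustment to all genes, the core's median was -0.25 as deposited and 0.01 after median centring, with 10 and 6 of 12 genes below 0.

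**Figure D5:**
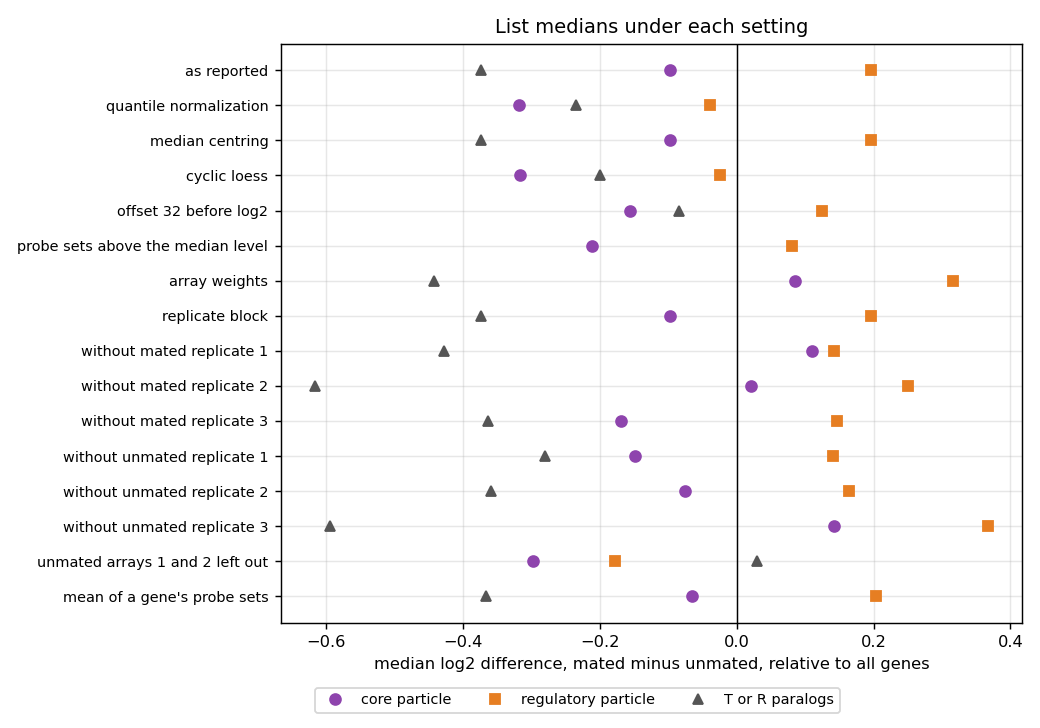
Median log2 difference of the core, the regulatory particle and the T or R paralogs, mated minus unmated and relative to all genes, under each setting (rows). The rows for median centring and the replicate block equal the row as reported by construction. The regulatory particle lies to the right of the core in each row, by 0.03 without mated replicate 1, and is below 0 after quantile normalization, after cyclic loess and with unmated arrays 1 and 2 left out; the core is above 0 with array weights and without mated replicate 1, mated replicate 2 or unmated replicate 3.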

How the data were processed

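The authors deposited 1 intensity per probe set and array on a linear scale. The submitters' processing notes name RMA with no version; other steps are not given in the sources used here. The intensities are not on a log2 scale, and the mean over the middle 96% is 250 on every array, so they were treated as scaled by 1 factor per array. Which summary the authors used remains unknown.

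Of 14010 probe sets, 44 controls were left out. In the platform annotation 12443 of the rest named 1 gene and 327 named several, while 1196 had no entry. Gene identifiers gave current symbols for 12394 of them in RefSeq Release 6 plus ISO1 MT, used for names only. Where a gene had several probe sets, the brightest on average over the 6 arrays (log2) stood for it.

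Log2 intensities of 13966 probe sets were compared with limma 3.58.1 under R 4.3.3 (lmFit, then eBayes; two-sided), with Benjamini-Hochberg adjustment over all of them and a threshold of 0.05. Lists are given by counts and medians, with no list test. The fit was tested on simulated data with independent noise on each array. Those data lacked the differences between arrays described above, and no result here rests on them. Members and lists were chosen with earlier results of these data known. Every proteasome gene could be named; other lists gave the genes with the smallest p, and cnc, bol and SP were added after their values were seen. For marker lists the rule took the brightest genes and those whose groups did not overlap, and only some of these are named. The precision of all values is limited by the number of arrays. Alternatives were other scalings, an offset of 32, dim probe sets left out, another variance model, array weights, a replicate block, arrays left out, a stricter threshold and probe sets averaged per gene.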

Additional observations from a re-analysis of the deposited data

How the results depend on the processing

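No proteasome gene passed the adjusted limma threshold under any of the 17 alternatives, also with the replicate number as a block (0 called). Among these alternatives, the stricter adjusted p of 0.01 could call no gene, since 0 passed at 0.05. The count at an unadjusted p of 0.05, which was 1, was 0 after quantile normalization, median centring, cyclic loess, an offset of 32, the omission of dim probe sets, trend and robust variance, and with unmated arrays 1 and 2 left out. It was 5 with array weights, 2 with probe sets averaged per gene, 1 with the replicate block, where Prosbeta4R2 (unadjusted p of 0.0455) took the place of Prosalpha3T (0.0751), and 0 to 3 with 1 array left out. Deviations from the group means correlated at -0.18, 0.03 and -0.09 between same-numbered arrays, and at -0.16 to 0.25 between arrays of unlike number. With 3 arrays per group such values cannot tell whether same-numbered arrays were paired. Relative medians ran as follows with 1 array left out: -0.17 to 0.14 for the core, 0.14 to 0.37 for the regulatory particle, -0.62 to -0.28 for the paralogs, -0.08 to 0.08 for associated genes, 0.15 to 0.41 for ubiquitin genes and 0.19 to 0.36 for the signalosome. The core's value of -0.10 was 0.14 without unmated replicate 3, 0.11 without mated replicate 1, 0.02 without mated replicate 2 and 0.08 with array weights; it was -0.32 after quantile normalization and after cyclic loess, and -0.21 among probe sets above the median level. With unmated arrays 1 and 2 left out the medians were -0.30 for the core, -0.18 for the regulatory particle, 0.029 for the paralogs, 0.20 for associated genes, -0.14 for ubiquitin genes and -0.13 for the signalosome. The paralogs' value of -0.37 was -0.084 with the offset of 32, and none of them was left among probe sets above the median level. The cause of these shifts was not tested. Outlying arrays were not sought, since groups of 3 are too small for it. The low intensity of the paralogs limits what can be said of them.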
